A study of Rattus norvegicus with 9 samples.

Results

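The 8 genes described here mark mast cells and were followed in the rat knee 1 week after meniscal surgery. They were the carboxypeptidase Cpa3, the chymase Cma1, the tryptases Tpsb2 and Tpsab1, the IgE receptor chains Fcer1a and Ms4a2, the histamine-synthesizing enzyme Hdc, and the growth factor receptor Kit. They were taken by symbol from the deposited expression table, which held all 8 of them among 17602 genes, and all 8 were among the 16512 genes that were tested, which had to exceed 0 TPM in 3 libraries or more. TPM, a measure of transcript abundance, is a level scaled to transcript length and to a fixed library total, so it can be compared between genes.

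All rats were wild-type male Lewis rats of 10 to 12 weeks of age, without any drug, and each group had 3 libraries of bulk RNA. The intact group was synovium around the medial meniscus of knees without surgery. The sham group was the same synovium 1 week after the joint capsule had been opened and closed. The third group, pMx, held regenerating tissue taken 1 week after a partial meniscectomy on the medial side, in which the meniscotibial ligament was cut and the anterior part of the medial meniscus was removed; the synovium around that tissue was removed before RNA extraction. The pMx and sham groups therefore differed in both surgery and tissue, and these cannot be told apart. The RNA integrity scores that the paper reports also differed by group without overlap. They were lowest for intact, higher for sham and highest for pMx samples, so RNA quality cannot be told apart from the groups either. The labels call the libraries biological replicates but do not say whether each came from a separate animal, so the p-values measure the spread between these libraries.

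Mast cells mature within connective tissue, including synovium, fat and the surroundings of vessels and nerves. Their granules hold histamine, proteoglycan and proteases, which are released when antigen cross-links IgE on the high-affinity receptor. Fcer1a encodes the chain that binds IgE, and Ms4a2 the beta chain that amplifies the signal. Kit, the receptor for stem cell factor, is needed for mast cell survival but is also carried by melanocytes and blood progenitors. In bulk tissue, fewer mast cells and less RNA per mast cell cannot be told apart.

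The levels of 7 of the 8 genes, all except Kit, correlated across these libraries (values are given with the correlations), so the sequences before the starts of the 8 genes were read. RefSeq promoters (build GRCr8) were available for 7 of the 8 genes, all except Ms4a2, and the 250 bases before the annotated start were searched on both strands for GATA motifs (AGATAA and its variant AGATAG, together with the forms TGATAA as well as TGATAG) and for E-boxes (CACGTG or the variant form CATGTG). Both are motifs of factors known from mast cells, GATA factors and MITF. A GATA motif lay in 3 of the 7, against 27.0% of 33469 promoters, and an E-box in 3 of the 7, against 17.1%. Cpa3 held 2 GATA motifs and 1 E-box, Fcer1a 1 of each, Cma1 1 GATA motif and Tpsb2 1 E-box. No search motif was found in the windows of Tpsab1, Hdc and Kit. The 3 windows with a GATA motif are shown, with that of Kit as the gene whose level differed least. Capitals mark the motifs on the printed strand, and a match is a description of letters only.
Cpa3, chr2:104673238-104673487, minus strand: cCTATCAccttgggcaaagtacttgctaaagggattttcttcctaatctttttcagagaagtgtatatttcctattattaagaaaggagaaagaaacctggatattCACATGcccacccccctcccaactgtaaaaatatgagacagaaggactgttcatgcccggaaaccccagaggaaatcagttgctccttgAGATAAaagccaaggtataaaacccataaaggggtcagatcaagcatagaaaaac
Fcer1a, chr13:88224680-88224929, minus strand: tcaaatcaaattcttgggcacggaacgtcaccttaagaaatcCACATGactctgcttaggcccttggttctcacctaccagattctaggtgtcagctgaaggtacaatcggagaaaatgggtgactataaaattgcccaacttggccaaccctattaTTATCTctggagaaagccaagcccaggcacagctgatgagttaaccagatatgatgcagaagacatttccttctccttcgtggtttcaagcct
Cma1, chr15:33390134-33390383, minus strand: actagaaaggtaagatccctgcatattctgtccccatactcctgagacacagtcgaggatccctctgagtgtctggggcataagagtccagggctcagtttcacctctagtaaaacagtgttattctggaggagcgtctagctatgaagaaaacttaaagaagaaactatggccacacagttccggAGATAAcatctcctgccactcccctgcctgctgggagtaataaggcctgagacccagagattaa
Kit, chr14:32978813-32979062, minus strand: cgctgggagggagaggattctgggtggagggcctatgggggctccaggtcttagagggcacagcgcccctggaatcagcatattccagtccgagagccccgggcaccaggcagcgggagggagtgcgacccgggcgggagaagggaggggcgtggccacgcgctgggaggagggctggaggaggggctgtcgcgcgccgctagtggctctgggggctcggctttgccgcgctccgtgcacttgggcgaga
The AGATAA of Cpa3 lay 55 to 50 bases before the start, that of Cma1 64 to 59 bases before it, and that of Fcer1a, on the opposite strand, 93 to 88 bases before it.

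By group mean, the proteases, the IgE receptor chains and Hdc were highest in sham synovium, lower in intact synovium and lowest in the regenerating tissue, whereas the group means of Kit lay between 4.92 and 6.29 TPM. The summed level of the 8 genes was 75.1 ± 32.4 TPM in intact libraries, 155 ± 39.6 TPM in sham libraries and 11.8 ± 1.92 TPM in pMx libraries (mean ± SD, n = 3 each). Without Kit, the sum of the other 7 was 148 ± 39.4 TPM after sham surgery and 6.88 ± 2.05 TPM after pMx, a 21.6-fold difference.

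**Figure D1:**
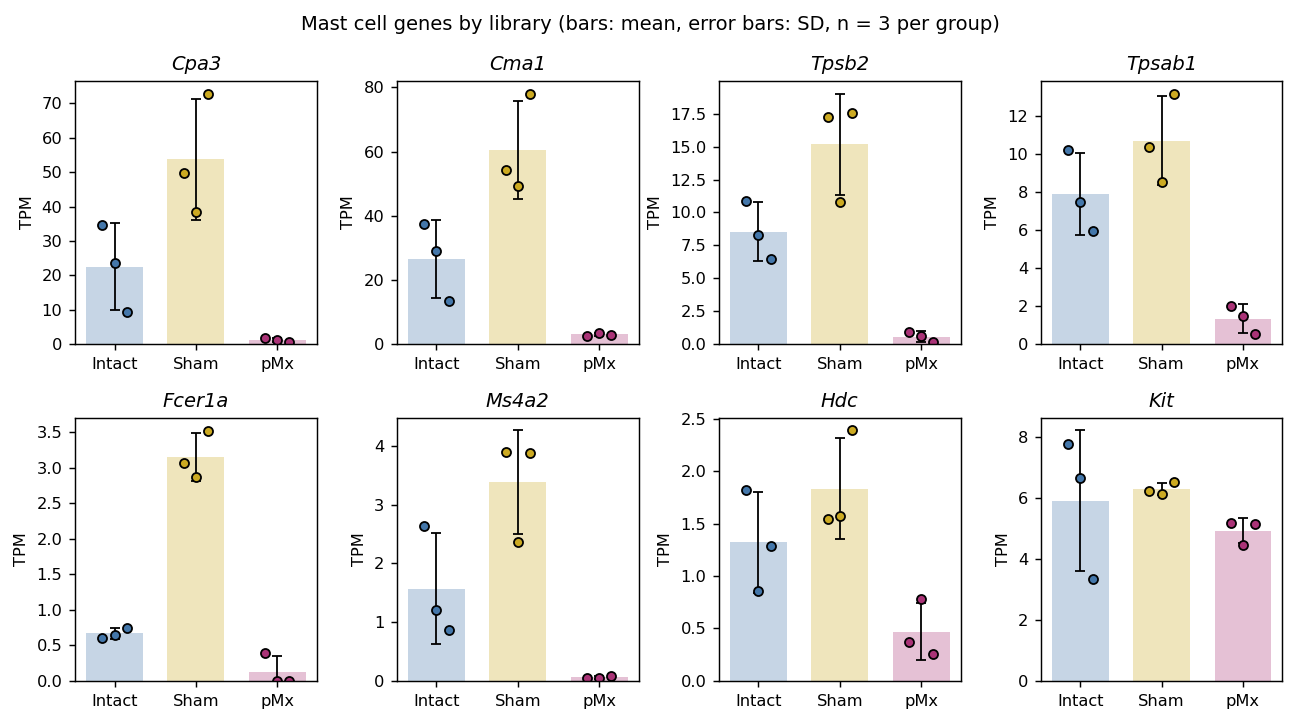
TPM of each mast cell gene in the 9 libraries, with the group mean as a bar and the SD as an error bar (n = 3 per group); each panel has its own axis starting at 0. The pMx libraries lie below the sham libraries in all 8 panels, by far the least for Kit, whose means were 4.92 TPM after pMx and 6.29 TPM after sham surgery. Fcer1a is listed at 0 in 2 pMx libraries.

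The question of the pMx versus sham comparison is how the regenerating tissue differed from operated synovium. Of the 8 genes, 7 fell in the pMx group by the test (adjusted p below 0.05), against 18.9% of all genes tested, and 0 rose, against 17.7%. Of these, 6 also passed a log2 fold change of 1 in size and were DEGs, against 4.85% of all genes tested. The pMx libraries were below every sham library for 8 of the 8 genes, against 29% of all genes tested. The median log2 fold change was -2.18 over the 8 genes and -0.01 over all genes tested. Fold changes are on the log2(TPM + 1) scale, which understates the change of low genes.

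Among the 4 proteases of the 8 genes, Cpa3, the carboxypeptidase stored with heparin, fell furthest. Its level was 49.8, 38.5 and 72.9 TPM in sham libraries and 1.75, 1.31 and 0.64 TPM in pMx libraries. The groups did not overlap, and the log2 fold change was -4.60 ± 0.44 (SE, adjusted p = 0.000129), with a 43.6-fold ratio of the mean TPM. Cma1, the chymase, was the most abundant of the 8 genes in the sham group.
Its level was 54.2, 49.4 and 78.1 TPM in sham libraries against 2.71, 3.62 and 2.84 TPM in pMx libraries. Every pMx library was far below the lowest sham library, with a log2 fold change of -3.90 ± 0.33 (adjusted p = 8.09e-05).

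The tryptases Tpsb2 and Tpsab1 are neighbouring paralogs on chromosome 10, so reads could have been split between them by the counting, which was not stated. Tpsb2 was at 17.2, 10.8 and 17.6 TPM in sham libraries and at 0.92, 0.66 and 0.13 TPM in pMx libraries. The ranges were well apart, and the log2 fold change was -3.37 ± 0.27 (adjusted p = 5.75e-05). Tpsab1 was at 10.4, 8.53 and 13.2 TPM in sham libraries and at 2.03, 1.47 and 0.56 TPM in pMx libraries. Tpsab1 fell without overlap as well, by 2.35 ± 0.27 on the log2 scale (adjusted p = 0.000333).

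Both IgE receptor chains were near or at 0 in the regenerating tissue. Ms4a2 was at 3.90, 2.36 and 3.88 TPM in sham libraries and at 0.05, 0.05 and 0.09 TPM in pMx libraries. It did not exceed 0.09 TPM in any pMx library, and its log2 fold change was -2.02 ± 0.24 (adjusted p = 0.000382). Fcer1a was at 3.06, 2.87 and 3.52 TPM in sham libraries, at 0.39 TPM in 1 pMx library and listed at 0 in the other 2. The groups did not overlap, with a log2 fold change of -1.89 ± 0.13 (adjusted p = 3.89e-05). At these levels the log2(TPM + 1) scale understates the ratio most, since the mean TPM of Ms4a2 differed 53.4-fold. Fcer1g, the shared gamma chain that other leukocytes also carry, did not pass the test. Its level was 363, 390 and 334 TPM in sham libraries and 381, 376 and 353 TPM in pMx libraries, with a log2 fold change of 0.03 (adjusted p = 0.865).

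Hdc, which makes histamine from histidine, was at 1.54, 1.57 and 2.39 TPM in sham libraries and at 0.37, 0.78 and 0.26 TPM in pMx libraries. The highest pMx library was below the lowest sham library. Hdc fell by 0.95 ± 0.19 on the log2 scale (adjusted p = 0.00531), which was short of the fold threshold for a DEG. Kit was at 6.22, 6.14 and 6.52 TPM in sham libraries and at 5.17, 4.45 and 5.15 TPM in pMx libraries. The ranges did not overlap, but Kit did not pass the test in the fit over 9 libraries, with a log2 fold change of -0.30 (95% interval -0.83 to 0.23, adjusted p = 0.351). The call on Kit depended on 1 intact library, intact replicate 3. Without it the same log2 fold change had an adjusted p of 0.0305. Intact replicate 3 was also set apart by skeletal muscle markers, whose summed level was 41360 TPM there and 56.8 to 2888 TPM in the other 8 libraries.

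**Figure D2:**
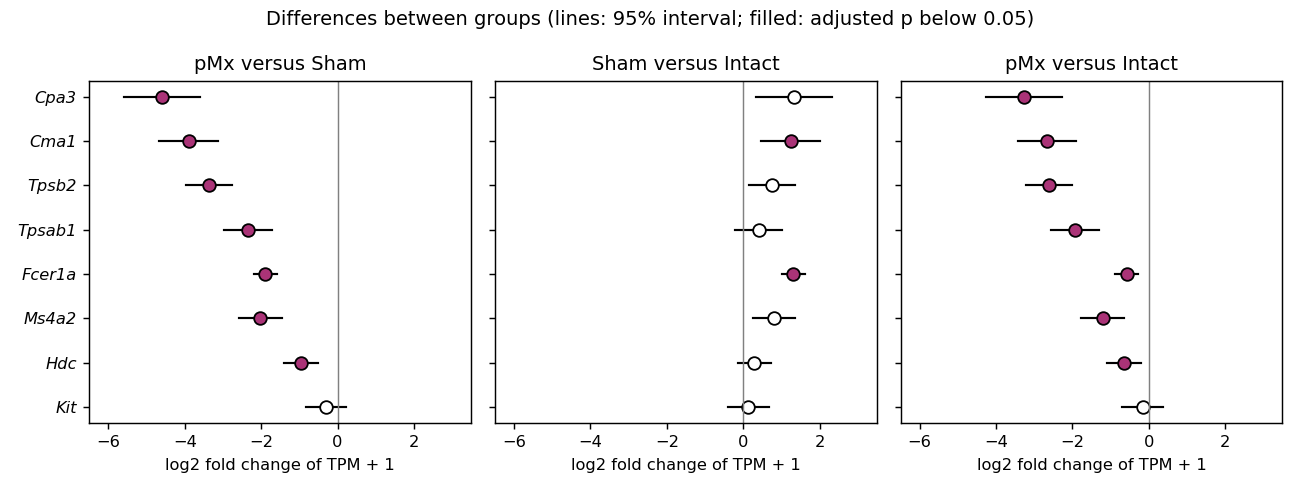
Log2 fold change of TPM + 1 for each gene in the 3 comparisons, with 95% intervals from the fit over 9 libraries; filled points have an adjusted p below 0.05. In all, 7 genes are filled and left of 0 in pMx versus sham and in pMx versus intact, where Kit alone is open, and only Cma1 and Fcer1a are filled, to the right of 0, in sham versus intact.

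The sham versus intact comparison asks what the opening of the capsule alone left in the synovium after 1 week. All 8 fold changes were positive, but only 2 genes rose by the test, against 6.73% of all genes tested. These 2 were also DEGs, against 1.42% of all genes tested called higher. The sham libraries were above every intact library for 3 genes, against 14.2% of all genes tested. The median log2 fold change was 0.78 over the 8 genes and -0.02 over all genes tested. Fcer1a was at 0.60, 0.65 and 0.75 TPM in intact libraries, so that all 3 sham libraries were well above them. Its log2 fold change was 1.31 ± 0.13 (adjusted p = 0.00239), with a 4.72-fold ratio of the mean TPM. That call held without each of the 9 libraries in turn but not with a pseudocount of 0.01 (adjusted p = 0.284).

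Cma1 was at 37.4, 29.0 and 13.4 TPM in intact libraries, all below the lowest sham library. It rose by 1.24 ± 0.33 on the log2 scale (adjusted p = 0.0460). This call held in only 2 of 9 fits without 1 library, those without intact replicate 1 or 3, and without intact replicate 3 its log2 fold change was 0.83, below the DEG threshold. In the other 7 the adjusted p was between 0.0699 and 0.127. Cpa3 was at 34.7, 23.5 and 9.44 TPM in intact libraries, which again lay below all sham libraries, but its log2 fold change of 1.34 ± 0.44 had an adjusted p of 0.0810. Ms4a2 was at 2.64, 1.21 and 0.86 TPM in intact libraries, with 1 of them above the lowest sham library, and its log2 fold change was 0.81 (adjusted p = 0.0644).

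The other 4 genes were closer between sham and intact synovium. Tpsb2 was at 10.9, 8.31 and 6.44 TPM in intact libraries, with a log2 fold change of 0.76 (adjusted p = 0.0987). Tpsab1 was at 10.2, 7.51 and 5.98 TPM, with a log2 fold change of 0.40 (95% interval -0.23 to 1.03, adjusted p = 0.383). For both tryptases the highest intact library reached into the sham range. Hdc was at 1.82, 0.86 and 1.29 TPM, with a log2 fold change of 0.29 (95% interval -0.15 to 0.73, adjusted p = 0.363). Kit was at 7.76, 6.66 and 3.33 TPM, on both sides of all sham libraries, with a log2 fold change of 0.14 (95% interval -0.39 to 0.67, adjusted p = 0.744), which was -0.17 without intact replicate 3. Intact replicate 3 had the lowest level of its group for Cpa3, Cma1, both tryptases, Ms4a2 and Kit, and the part of its muscle RNA in these differences was not tested. Without intact replicate 1, which was the highest of its group for Cpa3, Cma1, both tryptases, Ms4a2, Hdc and Kit, 4 of the 8 genes rose, Cpa3 (adjusted p = 0.0366) and Ms4a2 (adjusted p = 0.0112) in addition. The share of all genes tested that rose in that fit was not computed, so this count is a description only.

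The comparison of pMx with intact knees shares its libraries with the other comparisons and is given beside them. Of the 8 genes, 7 fell, against 27.1% of all genes tested, and 5 were DEGs, against 7.89%. The pMx libraries were below every intact library for 7 genes, against 30.6% of all genes tested. The log2 fold changes of these 5 were -3.26 for Cpa3, -2.66 for Cma1, -2.61 for Tpsb2, -1.95 for Tpsab1 and -1.21 for Ms4a2 (adjusted p from 7.03e-05 to 0.00324). Fcer1a and Hdc fell by less on the log2(TPM + 1) scale, by 0.58 (adjusted p = 0.00670) and 0.66 (adjusted p = 0.0204). Fcer1a was at only 0.60 to 0.75 TPM in intact libraries. Even a fall to 0 could therefore not reach the DEG threshold on that scale. Its mean TPM differed 5.13-fold between intact and pMx libraries, beside 5.84-fold for Tpsab1. The call on Hdc held in 6 of 9 fits without 1 library, and was lost without intact replicate 1, pMx replicate 1 or pMx replicate 3, with adjusted p between 0.0644 and 0.0723. For Kit the intact range enclosed the pMx range, with a log2 fold change of -0.16 (95% interval -0.69 to 0.37, adjusted p = 0.593). Without intact replicate 3 it was -0.47 (adjusted p = 0.00594), and without intact replicate 1 it was 0.04.

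The order of the 8 genes differed between the tissues. In the sham group Cma1 (60.5 ± 15.4 TPM) and Cpa3 (53.7 ± 17.5 TPM) led. Their ranges overlapped, but Cma1 was above Cpa3 in each sham library. Tpsb2 (15.2 ± 3.84 TPM) and Tpsab1 (10.7 ± 2.35 TPM) came next. Their ranges overlapped too, but Tpsb2 was above Tpsab1 in each sham library. Then came Kit (6.29 ± 0.20 TPM), then Ms4a2 (3.38 ± 0.88 TPM) and Fcer1a (3.15 ± 0.33 TPM), which overlapped. Hdc (1.83 ± 0.48 TPM) was last, its highest library just above the lowest of Ms4a2. In the intact group Cma1 and Cpa3 led again, with Fcer1a last. The ranges of Cma1 and Cpa3 overlapped, but Cma1 was higher in each intact library. In the pMx group Kit was first (4.92 ± 0.41 TPM), ahead of Cma1 (3.06 ± 0.49 TPM), with no overlap. Tpsab1 (1.35 ± 0.74 TPM) and Cpa3 (1.23 ± 0.56 TPM) overlapped, as did Tpsb2 (0.57 ± 0.40 TPM) and Hdc (0.47 ± 0.27 TPM).

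Relative to Cpa3, 4 of the other 7 genes differed between pMx and sham libraries without overlap, and 3 overlapped. Cpa3 itself fell furthest of the 8 genes on the log2(TPM + 1) scale, and any gene that fell by a smaller factor has a higher ratio to it. The share of all genes tested with such a ratio was not computed, so this count is a description only. Kit made up 4.22 ± 0.91% of the summed TPM of the 8 genes after sham surgery and 42.6 ± 9.28% after pMx. The ratio of Kit to Cpa3 in TPM was 0.13, 0.16 and 0.09 in sham libraries and 2.95, 3.40 and 8.05 in pMx libraries. The ratio of Tpsab1 to Cpa3 was 0.21, 0.22 and 0.18 in sham libraries and 1.16, 1.12 and 0.88 in pMx libraries. Those of Hdc and Cma1 were also higher in every pMx library than in any sham library.

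The ratios of Tpsb2, Ms4a2 and Fcer1a to Cpa3 overlapped between the groups. That of Tpsb2 was 0.35, 0.28 and 0.24 in sham libraries and 0.53, 0.50 and 0.20 in pMx libraries. That of Ms4a2 was 0.078, 0.061 and 0.053 in sham libraries and 0.029, 0.038 and 0.14 in pMx libraries. That of Fcer1a was 0.061, 0.075 and 0.048 in sham libraries, and 0.22 in 1 pMx library with Fcer1a listed at 0 in the other 2. A 2-sided exact permutation test of 3 against 3 libraries cannot go below p = 0.1, so no ratio could pass a threshold of 0.05. On the log2 scale with a pseudocount of 1 all 7 ratios reached that p (0.1 after adjustment over the 7), but the pseudocount draws the low pMx values towards a ratio of 1, and 3 of the 7 overlapped without it, so nothing is read from that test.

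**Figure D3:**
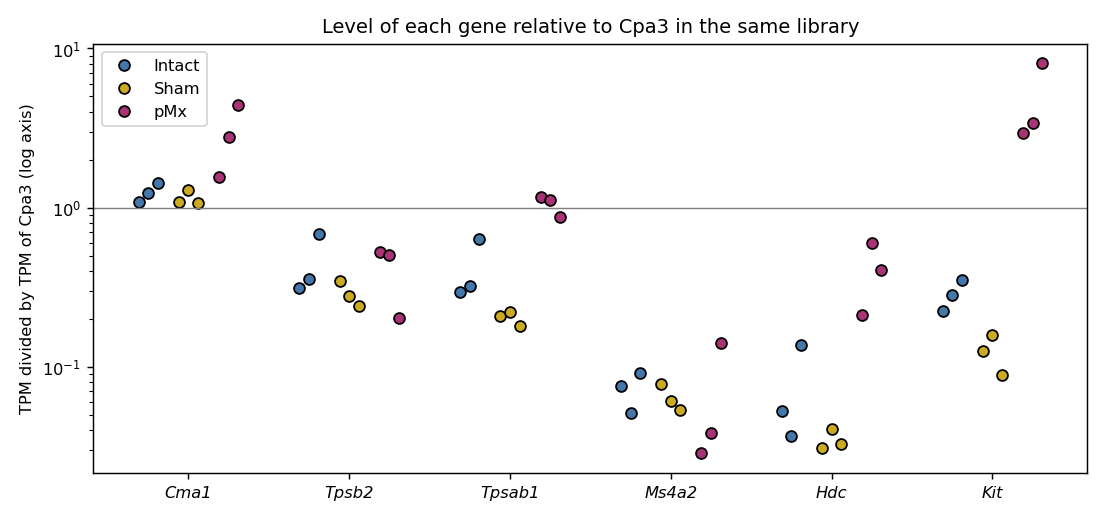
TPM of Cma1, Tpsb2, Tpsab1, Ms4a2, Hdc and Kit divided by the TPM of Cpa3 in the same library, on a log axis, with 1 point per library; Fcer1a is left out because it is listed at 0 in 2 pMx libraries. For Cma1, Tpsab1, Hdc and Kit all 3 pMx points lie above all sham points, with Kit at 2.95 to 8.05 in pMx libraries, while the pMx and sham points of Tpsb2 and of Ms4a2 overlap.

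Over the 9 libraries, the pairwise Pearson r of log2(TPM + 1) lay between 0.78 and 0.99 for the 21 pairs without Kit, and between 0.39 and 0.61 for the 7 pairs with Kit. These values share the 3 group means and describe the same libraries. The 10 other genes most like the mean of the z-scored 8 genes, among 13193 genes with a mean of at least 1 TPM, were Naca, Bdh2, Dpt, Sft2d1, LOC688858, Rassf2, Ltc4s, Rnf13, Alox5 and C1qtnf2 (Pearson r from 0.980 to 0.991 over 9 libraries). Ltc4s and Alox5 belong to leukotriene synthesis, and Dpt encodes dermatopontin, a matrix protein. Naca, which encodes a chaperone of nascent proteins, was at 1134 to 1217 TPM in sham libraries and at 863 to 885 TPM in pMx libraries, so that a high r did not mean a large difference. The chymase-like Mcpt1l1 ranked 25 with r = 0.971.

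Other genes of mast cell biology were read from lists by function. Of the other granule proteases, 21 genes were listed, 10 were in the table and 6 were tested, and 1 of the 6 fell in the pMx group compared with the sham group, where 18.9% of all genes tested fell and 17.7% rose, so the count was near the background. This was Mcpt1l1, at 149, 136 and 185 TPM in sham libraries and 2.54, 5.78 and 3.07 TPM in pMx libraries. Its level was higher than that of any of the 8 genes in every sham and every intact library, and its log2 fold change was -5.09 ± 0.40 (adjusted p = 5.60e-05). It belongs to a family of close copies, so its reads may be shared with them. The other 5, Mcpt2, Mcpt8, Mcpt10, Ctsg and Gzmb, did not pass the test, and none was above 1.61 TPM in any sham or pMx library.

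Of 12 tested genes of the granule matrix and of histamine handling, 7 fell in the pMx group compared with the sham group and 0 rose, against 18.9% and 17.7% of all genes tested. Their median log2 fold change was -0.61. The largest difference was in Slc22a3, a transporter of organic cations including histamine, at 17.9, 18.0 and 15.2 TPM in sham libraries and 0.61, 0.34 and 0.57 TPM in pMx libraries. Its log2 fold change was -3.58 (adjusted p = 2.99e-05). The histamine receptors Hrh3, Hrh2 and Hrh1 fell by 1.35, 1.10 and 0.60 on the log2 scale. Srgn, the core protein of granule proteoglycan, was at 69.1, 65.1 and 63.2 TPM in sham libraries and 32.6, 30.4 and 31.6 TPM in pMx libraries, and fell by 1.04. Tph1, for serotonin synthesis, and Slc18a2, which loads amines into granules, were below 1.1 TPM in every library and fell by 0.70 and 0.61.

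Of 7 genes for prostaglandin D2 and leukotriene synthesis, 5 fell and 1 rose, against 18.9% and 17.7% of all genes tested, with a median log2 fold change of -0.95. Hpgds, the prostaglandin D synthase of hematopoietic cells, was at 9.93, 7.59 and 11.1 TPM in sham libraries and 0.11, 0.02 and 0.17 TPM in pMx libraries. The groups were far apart, with a log2 fold change of -3.25 ± 0.16 (adjusted p = 1.16e-05). Ltc4s, which makes leukotriene C4, fell by 1.84, Alox5 by 1.37, the cyclooxygenase Ptgs1 by 0.95 and Alox5ap by 0.84. Ptgs2, the inducible cyclooxygenase, which many cell types express, rose by 2.77 (adjusted p = 0.000457), from 1.16, 1.18 and 0.54 TPM to 15.1, 6.30 and 18.5 TPM.

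Of 34 genes for transcription factors and receptor signalling that mast cells share with other blood cells, 7 fell, 3 rose and 24 did not pass the test. The share that fell was close to the 18.9% of all genes tested and the share that rose was below the 17.7%, and the median log2 fold change was 0.03. Mitf, Tal1 and Gata2, factors of mast cell differentiation among other lineages, fell by 0.73, 0.60 and 0.59. Gata1, the receptor Mrgprx2, Rgs13 and the granule-docking gene Rab27a also fell, the first 3 of them from levels below 0.7 TPM. Il1rl1, the receptor of IL-33, rose by 1.29 and Runx1 by 1.44, and Rab27b rose by 0.70. The kinases Lyn and Syk, which act below the IgE receptor, had log2 fold changes of 0.13 (adjusted p = 0.528) and 0.14 (adjusted p = 0.551).

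Of 12 tested ligands that feed, attract or activate mast cells, 6 fell and 1 rose in the pMx group compared with the sham group, against 18.9% and 17.7% of all genes tested, with a median log2 fold change of -0.54. Kitlg, stem cell factor itself, was at 32.8, 33.3 and 31.7 TPM in sham libraries and 15.7, 16.1 and 20.96 TPM in pMx libraries. It fell by 0.87 ± 0.13 there (adjusted p = 0.00103), and it was also lower in sham than in intact synovium, by 0.58 (adjusted p = 0.0248), where the intact libraries held 51.9, 54.4 and 41.8 TPM. Ccl11 fell by 3.10, the alarmin Il33 by 2.35, Cxcl12 by 1.31 and Cx3cl1 by 0.90. Il10 fell by 0.57 and passed narrowly (adjusted p = 0.0458). Its levels were low, at 0.64, 0.16 and 1.01 TPM in sham libraries and 0.05 to 0.07 TPM in pMx libraries. Tgfb1 rose by 0.54. In sham versus intact, 3 of the 12 ligands fell (Kitlg, Ccl11 and Cx3cl1), against 5.97% of all genes tested, and 0 rose.

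**Figure D4:**
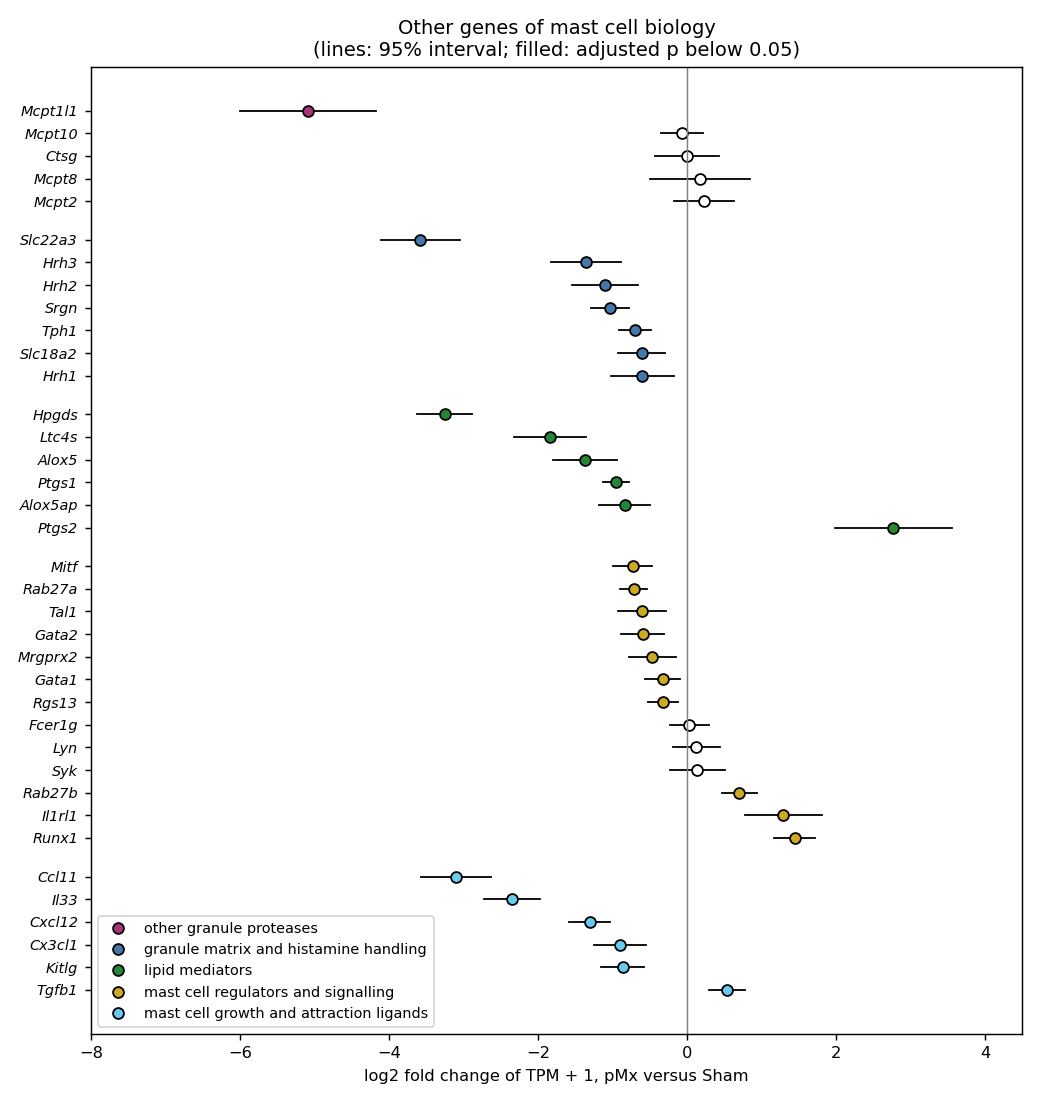
Log2 fold change of TPM + 1 in pMx versus sham for a selection of the genes of 5 lists, one row per gene, with 95% intervals. Filled points have an adjusted p below 0.05. The other tested genes of these lists are not plotted, so the points do not show the share of each list that passed. Mcpt1l1 at -5.09, Slc22a3 at -3.58 and Hpgds at -3.25 are farthest to the left, and Ptgs2 at 2.77 is farthest to the right.

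Some lists of markers of other cells fell with the mast cell genes in pMx versus sham, and others did not. The part of these markers in the differences was not tested. Their counts stand against 18.9% of all genes tested that fell and 17.7% that rose in pMx versus sham. The summed level of 4 leukocyte markers was 161 ± 37.7 TPM for intact, 298 ± 21.2 TPM for sham and 315 ± 9.53 TPM for pMx libraries, and 0 of the 4 passed the test in pMx versus sham. Per 1000 TPM of these markers, the 7 mast cell genes without Kit summed to 416 ± 97.9 TPM for intact, 506 ± 173 TPM for sham and 21.7 ± 5.95 TPM for pMx libraries. On this scale the sham mean was 23.3-fold the pMx mean and 1.22-fold the intact mean.

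Fat markers fell with the mast cell genes in the pMx group. All 8 adipocyte markers fell compared with the sham group, from a sum of 4911 ± 255 TPM to 413 ± 103 TPM. In the intact group the sum was 5244 ± 2063 TPM, and 0 of the 8 passed the test in sham versus intact. Most of the sum in each group was Fabp4, with a mean of 3485 TPM in sham and 355 TPM in pMx libraries. In pMx versus sham Fabp4 fell by 3.32 on the log2 scale. Adipoq, Cidec, Retn, Plin1 and Lep fell by more, and Pnpla2 and Lipe by less. Of 7 nerve markers 6 fell, from a sum of 498 ± 55.8 TPM to 222 ± 2.05 TPM. Of 8 macrophage markers 3 fell and 1 rose, and their sums were 1599 ± 35.4 TPM and 1305 ± 228 TPM. Of 7 neutrophil markers 1 fell, and of 7 endothelial markers 2 fell, both near the background share. The 9 synovial lining and fibroblast markers had 3 that fell and 2 that rose. Of 6 fibrocartilage markers 3 rose, and 0 of 8 skeletal muscle markers passed the test.

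**Figure D5:**
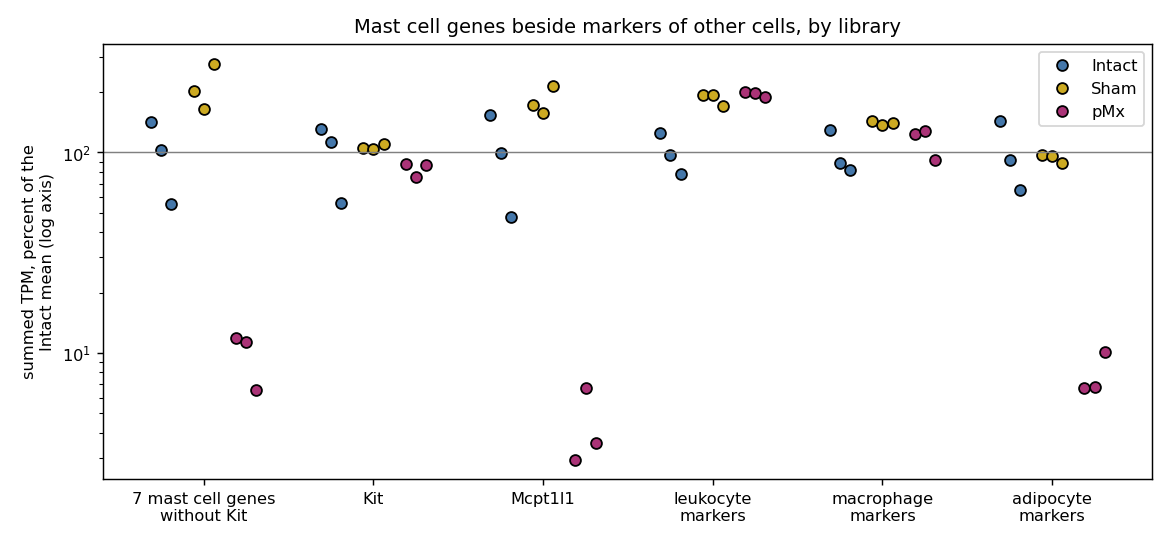
Summed TPM in each library as a percent of the intact mean, on a log axis, for the 7 mast cell genes without Kit, for Kit, for Mcpt1l1, and for leukocyte, macrophage and adipocyte markers. In the pMx libraries the 7 genes lie between 6.53 and 11.9 percent and the adipocyte markers between 6.69 and 10.1 percent, while the leukocyte markers lie between 189 and 200.1 percent. Most of the adipocyte sum is Fabp4, and single adipocyte markers fell by more or by less than it.

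Cells that share genes with mast cells were read in the same way. Of 13 basophil and eosinophil markers, 9 were in the table and 6 were tested. Of these, 1, the integrin Itga2b, fell in pMx versus sham, against 18.9% of all genes tested, so the count was near the background. The sum of the 9 markers was 2.34 to 4.18 TPM in pMx libraries and 4.86 to 7.23 TPM in sham libraries. Itga2b alone, at 1.17 to 1.44 TPM in pMx libraries and 2.35 to 3.78 TPM in sham libraries, was a large part of it. The defining granule genes of eosinophils were at or near 0 there, with Prg2 at no more than 0.52 TPM, Epx at no more than 0.04 TPM and Prg3 and Ear1 listed at 0 in all 6 libraries. Melanocytes carry Kit, and 5 of 7 of their markers were in the table and tested. Mlana fell by 2.13 on the log2 scale in pMx versus sham, and Sox10 fell from 2.47 to 2.62 TPM in sham libraries to 0.16 to 0.31 TPM in pMx libraries, while Pmel had a log2 fold change of -0.20 (adjusted p = 0.172). Tyrp1 and Dct were at no more than 0.49 TPM in any library.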

How the data were processed

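Bulk mRNA was selected with oligo-dT beads, primed with random hexamers, given a dUTP-marked second strand and sequenced on a BGISEQ-500. The authors deposited TPM values per gene for 9 libraries, 3 in each of 3 groups set by the sample titles. HISAT2 2.0.4 and the build mRatBN7.2 come from the submitters' processing notes; the counting tool and the annotation are not given in the sources used here. TPM keeps no read numbers, so the depth is unknown and the precision is the spread between libraries. TPM has a fixed total, so a large rise in some genes lowers the others.

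The deposited TPM were put on the log2(TPM + 1) scale for 16512 of 17602 genes, those exceeding 0 TPM in 3 libraries or more. Group means over all 9 libraries were fitted in limma 3.58.1 (R 4.3.3; lmFit, contrasts.fit, eBayes with trend), with 2-sided tests and Benjamini-Hochberg adjustment over all genes tested. DEGs, after the study's thresholds, had to pass both an adjusted p of 0.05 and a log2 fold change of 1 in size. On simulated data of 16512 genes for pMx versus sham, 97% of 200 genes shifted by 2 on the log2 scale were called, with 1 false call. The values were independent normal draws, and the shifted genes all had a mean log2(TPM + 1) above 1. The result therefore does not cover changes in genes below that level or effects shared by a whole library. Ratios were tested with exact permutation tests (SciPy 1.17.1).

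The 8 genes and all lists were chosen with earlier results of these data known. The genes named are the 8 genes, genes of the lists, and the 10 genes most like them. Of the table's gene identifiers, 17419 were found in RefSeq GRCr8, and the symbols of all 8 genes matched. Promoters are from GRCr8, not the build of the values, and protein identity was not analysed here. Alternatives were other pseudocounts (0.1 and 0.01), filters, scalings, variance models, thresholds, a replicate block, fits on 6 libraries and leaving out each library.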

Additional observations from a re-analysis of the deposited data

How the results depend on the processing

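All 7 calls among the mast cell genes in pMx versus sham were kept under every alternative fit run (pseudocounts, filters, scalings, variance models, 6 libraries, the block, and leaving out each library). In sham versus intact, 2 genes passed in the reported fit, but the number of DEGs and the number with an adjusted p below 0.05 were each 1 with a pseudocount of 0.01, without a filter, with the 6 libraries of the comparison, with robust variances and at an adjusted p below 0.01, and ranged from 1 to 4 over the fits without 1 library. The cause was not tested, and the shares of all genes tested that were called in these fits were not computed. In pMx versus intact, Hdc also lost its call with quantile normalization (adjusted p = 0.0536). Kit passed in pMx versus sham with the 6 libraries of that comparison (adjusted p = 0.0314). Of 43 other genes named from the lists, 4 lost a call under 1 or more alternatives in pMx versus sham, namely Gata1, Hrh1, Mrgprx2 and Rgs13, as did 9 in sham versus intact and 2 in pMx versus intact.

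Same-numbered libraries share only a number. Their deviations from the group means correlated by 0.0346, 0.368 and 0.485 in pMx versus sham, where 5 of 6 libraries were closest to their own number, and by 0.00161 or less in the other comparisons, where 0 of 6 were. With the replicate number as a block, 1 gene was called in sham versus intact, Cma1 losing its call (adjusted p = 0.0864), and 6 and 5 DEGs were called in pMx versus sham and pMx versus intact, as without it.

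Directions that reversed belonged to small differences. Over the fits without 1 library, the log2 fold change of Kit ranged from -0.17 to 0.34 in sham versus intact and from -0.47 to 0.038 in pMx versus intact. In pMx versus sham it ranged from -0.12 to 0.43 for Mcpt8 and from -0.025 to 0.087 for Fcer1g. In sham versus intact it ranged from -0.38 to 0.078 for Mcpt8, from -0.38 to 0.074 for Slc22a3 and from -0.082 to 0.25 for Mlana, and in pMx versus intact from -0.25 to 0.24 for Mcpt8. The log2 ratio of Fcer1a to Cpa3 in sham versus intact was -0.026, and 0.69 with a pseudocount of 0.1. In pMx versus sham, Mcpt2 was at -0.33 with a pseudocount of 0.01 and Fcer1g at -0.042 with quantile normalization. In pMx versus intact, Mcpt8 was at -0.0076 and -0.041 with pseudocounts of 0.1 and 0.01. The group sums moved by less than 1 SD after rescaling or removal of muscle markers. Depth being unknown, values near 0 TPM, such as those of Ms4a2 and Fcer1a in the pMx group, have no counting error attached.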
